A study of Mus musculus with 8 samples.

Results

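The proteasome subunit genes were the protein-coding genes whose mouse symbol is Psma, Psmb, Psmc, Psmd or Psme followed by a number. The annotation held 43 such genes, and 42 were in the table of 15538 genes; Psma8 was not analysed here. The study sequenced bulk polyadenylated RNA from primary mouse neurospheres, floating clusters of cultured embryonic neural stem cells, in 8 libraries. By the labels, 4 were wild type (Phf23+/+) and 4 came from cells lacking Phf23 (Phf23-/-), and the study asked how the loss of this gene affects the differentiation of these cells. The origin of the cells by strain, embryonic day, animal, passage or day of culture, and the way the allele was made, are not stated in the labels. Nothing in the labels says that the 4 libraries of a genotype came from separate cultures or animals. A p-value here therefore only sets the genotype difference against the scatter of these libraries, and that scatter may be technical.

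The proteasome is the large protease that degrades proteins tagged with ubiquitin. Its barrel-shaped core has outer rings of alpha subunits (Psma genes), which gate the entrance, and inner rings of beta subunits (Psmb genes), which carry the active sites. The regulatory particle that caps the core has a base, with a ring of ATPases (Psmc genes) that unfold and thread the substrate, and a lid (most Psmd genes) that removes the ubiquitin chain. Other caps, made from Psme genes, open the core without hydrolysing ATP. In cells exposed to interferon, the immunoproteasome subunits Psmb8, Psmb9 and Psmb10 take the places of the constitutive catalytic subunits Psmb5, Psmb6 and Psmb7. Psmb11 is the catalytic subunit of the thymus.

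The shallowest library was wild type 3, with 15647304 recovered reads, and the deepest was Phf23 knockout 3, with 19462516. Phf23 itself, the targeted gene, was at 720, 766, 788 and 919 normalised reads in the wild-type libraries and at 1607, 1528, 1429 and 1361 in those labelled knockout. It averaged 798 ± 85.4 and 1481 ± 108 (SD, n = 4) (log2 fold change 0.89, FDR 0.000581). A gene total does not show whether part of the gene was deleted, so every direction below runs from the libraries labelled wild type to those labelled knockout. The libraries also differed in how a gene's level depended on transcript length. For each library, a gene's log2 level minus its mean over the 8 libraries was regressed on log2 length. The slope is thus relative to the average of the libraries. In log2 units per doubling of length over 13265 genes, it was 0.26 and 0.20 in wild type 1 and 2. In wild type 3 and 4 it was 0.08 and 0.06. It was -0.24 and -0.31 in Phf23 knockout 1 and 2 and -0.09 and 0.04 in Phf23 knockout 3 and 4. All 10 neural stem cell markers looked for were measured, and 3 of the 10 rose (Fabp7, Msi1 and Hes5), against 14.8% of all genes. Nes (log2 fold change -0.11, FDR 0.552) and Sox2 (0.41, FDR 0.0506) were not called. Their summed level was 137907 to 147342 normalised reads in wild type and 158830 to 200717 in the knockout-labelled libraries, without overlap, and Vim and Fabp7 made up most of it. Of 10 microglial and macrophage markers only P2ry12 was in the table, at 15.7 to 48.4 normalised reads over the wild-type libraries and 14.4 to 17.9 over the others. The endothelial (5 of 7 in the table) and blood markers (2 of 6) summed to at most 117 and 14.7 normalised reads in any library. Young neuron markers (6 of 6) summed to 1334 to 1687 in wild type and 1112 to 1276 in the knockout-labelled libraries. They did not move together: 1 of the 6 was called higher and 1 lower, against 14.8% of all genes in each direction. Their median log2 fold change was 0.08. The part of cell composition in the changes below was not tested.

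Proteasome subunit genes were mostly higher in the knockout-labelled libraries. Of the 42 genes, 20 rose, 1 fell (Psme4) and 21 did not pass the test, limma-trend over all genes with Benjamini-Hochberg adjustment and a false discovery rate (FDR) under 0.05. Over all genes 14.8% were called higher and 14.8% lower. The log2 fold change was positive for 38 members and negative for 4, with a median of 0.38 against 0.001 over all genes and a range from -0.44 for Psme4 to 0.77 for Psmb10. The genotypes did not overlap for 18 members, each higher in the knockout-labelled libraries, against 13.6% of all genes. In bulk RNA, a change in the number of cells of a type and a change in RNA per cell cannot be told apart.

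**Figure D1:**
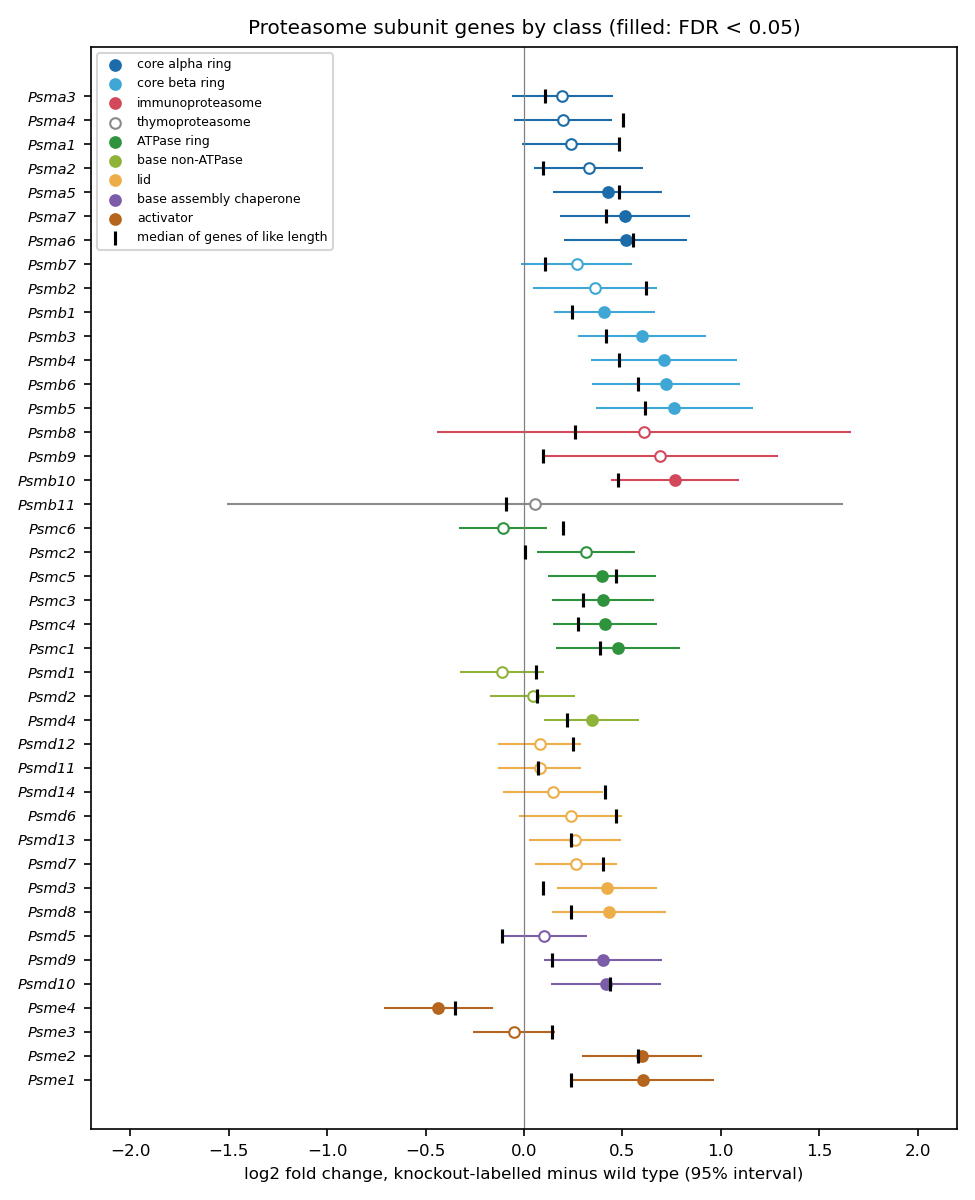
Log2 fold change (horizontal axis, knockout-labelled libraries minus wild type, on the log2(value + 1) scale) of each of the 42 proteasome subunit genes, ordered by class, with 95% confidence intervals from limma-trend; filled points are called at an FDR under 0.05, open points are not, and the black ticks are the medians of genes of like transcript length. Psmb10 sits highest at 0.77 and Psme4 lowest at -0.44, and 26 of the 42 points lie to the right of their tick.

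The rise was carried mainly by Phf23 knockout 1 and 2. Of the 42 members, 36 were highest in either of these libraries, and all 20 genes called higher were among them. Over the members, the median log2 level relative to the wild-type mean was 0.54 in Phf23 knockout 1, 0.56 in 2, 0.24 in 3 and 0.11 in 4. In wild type 1 to 4 it was -0.07, 0.01, 0.06 and 0.06. The members took 0.459, 0.484, 0.506 and 0.501% of the recovered reads of the wild-type libraries and 0.633, 0.619, 0.548 and 0.506% of those labelled knockout. The share in Phf23 knockout 4 thus equalled that in wild type 3, the highest wild-type library, to 3 digits. Libraries 1 and 2 of each genotype were also the 4 with the steepest length slopes. Between wild type 3 and 4 and Phf23 knockout 3 and 4 alone, 1 member was called higher (Psmb10) and 0 lower, against 4.61% and 4.54% of all genes (4 at an unadjusted p under 0.05, limma-trend), and the median was 0.13. Between libraries 1 and 2 of each genotype, 31 members were called higher and 2 lower, against 23.3% and 23% of all genes, and the median was 0.58. With all other libraries kept, the count called higher was 6 without wild type 1, 6 without wild type 2, 5 without Phf23 knockout 1 and 9 without Phf23 knockout 2. Over all 15538 genes the counts called higher in these fits were 1102, 1053, 948 and 1541, against 2301 with all 8 libraries. The members' counts thus fell along with those of all genes, and by a larger share in each of these fits. Leaving out any of the other libraries gave 15 to 29 members, and 1771 to 2919 over all genes. The fits on 4 libraries take their FDRs mostly from the variance that limma shares across genes.

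**Figure D2:**
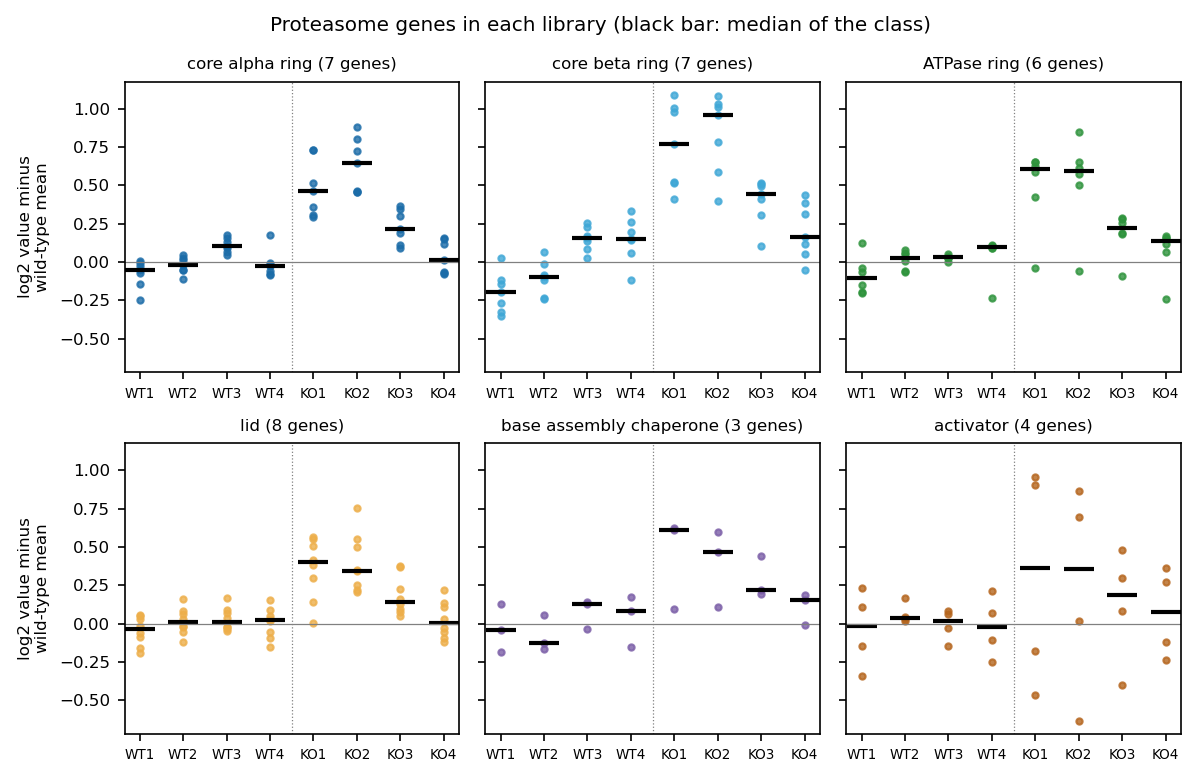
Log2 level relative to the wild-type mean (vertical axis) of each gene of 6 classes in each library, where WT1 to WT4 are the wild-type libraries, KO1 to KO4 those labelled Phf23 knockout, each point is 1 gene and the black bar is the median of the class. In the beta ring the bars stand at 0.77 and 0.96 in KO1 and KO2 and at 0.44 and 0.17 in KO3 and KO4.

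Shorter genes in general tended to be higher in the knockout-labelled libraries, and the longest annotated transcripts of the members had a median of 1931 nucleotides. The 42 members were therefore set beside the other protein-coding genes whose longest annotated transcript was within 10% of their own, and whose mean level was 10 normalised reads or more. There were 177 to 1919 such genes for a member, and 10108 in all, of which 19.9% were called higher and 10.9% lower. The median log2 fold change of these genes had a median of 0.25 over the members, and 26 of the 42 members lay above the median of their own. Had each member been called at the rate of the genes of its length, 14.1 would have been called higher (14.2 by the length of the principal transcript, 12.2 by the median coding transcript). The observed number was 20. Among the members themselves, the Spearman correlation of log2 fold change with length was -0.56, and with GC content 0.62. These are descriptions over 42 genes measured in the same libraries. The genes of like length were not chosen for level, and whether length accounts for the members' change was not tested.

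**Figure D3:**
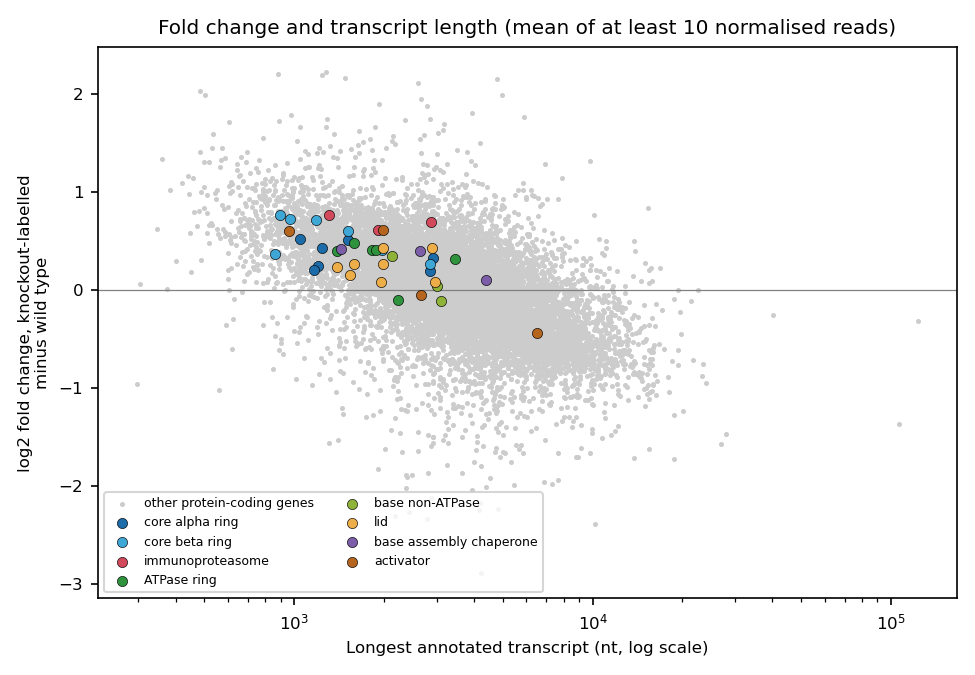
Log2 fold change (libraries labelled knockout minus wild type) against the length of the longest annotated transcript in nucleotides, on a log axis, for protein-coding genes averaging 10 or more normalised reads; coloured points are proteasome subunit genes by class. Values fall with length over all genes, and 26 of 42 members lie above the median of genes of their length.

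A loess trend with length and GC content was then subtracted from each library before the same test. With the longest transcript, 9 members were called higher and 0 lower, against 10.6% and 7.87% of all genes, and the members' median was 0.14. By unadjusted p, 17 members were under 0.05, all higher. The 9 genes were Psma2, Psma3, Psmb1, Psmb3, Psmb4, Psmb6, Psmc2, Psmd3 and Psmd5, of which 5 were also called without the subtraction. With the APPRIS principal transcript, the main isoform by annotation, 6 were called higher and 0 lower (12 at an unadjusted p under 0.05), against 10.5% and 7.65% of protein-coding genes, and the median was 0.10. Those 6 were Psma2, Psma3, Psmb1, Psmb4, Psmb10 and Psmd5. Only Psmb1 and Psmb4 were called with and without the subtraction and with either transcript. When each library's length slope entered limma-trend as a covariate, 0 members were called in either direction, 0 had an unadjusted p under 0.05 and the median was 0.01, while 0.656% of all genes were called higher and 0.438% lower. No other tool was run with that covariate.

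**Figure D4:**
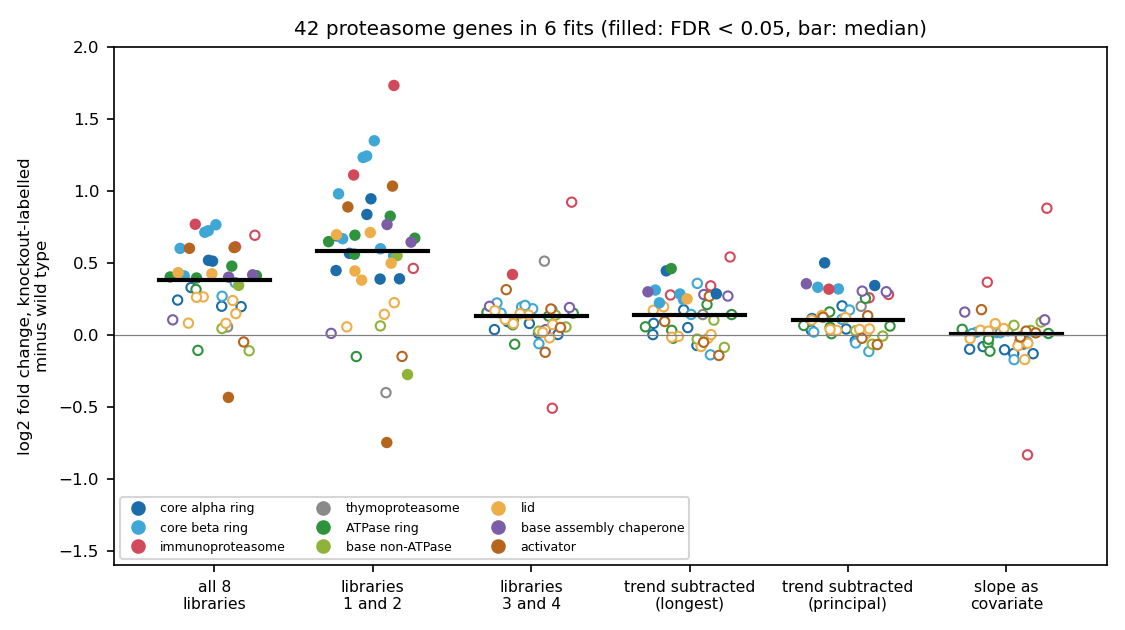
Log2 fold change (vertical axis) of the 42 proteasome subunit genes in 6 fits, coloured by class, with filled points called at an FDR under 0.05 and a black bar at the median. The median is 0.38 with all 8 libraries, 0.58 in libraries 1 and 2 of each genotype, 0.13 in libraries 3 and 4, 0.14 and 0.10 with a length and GC trend subtracted, and 0.01 with the length slope as a covariate; the horizontal spread of points carries no meaning.

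The alpha ring genes, which form the gate of the core, rose in 3 of 7 cases (42.9%, against a mean of 41.5% called higher among genes of like length), and the median log2 fold change of the class was 0.33. Genes of like length had a median of 0.48, and 3 of the 7 lay above that of their own. Psma6 was at 2380, 2309, 2504 and 2382 normalised reads in the wild-type libraries 1 to 4 and at 3977, 4406, 2952 and 2664 in Phf23 knockout 1 to 4. All 4 libraries labelled knockout were above all wild-type libraries, with Phf23 knockout 1 and 2 far above the others. The mean went from 2394 ± 81.2 to 3500 ± 826 (SD, n = 4), a log2 fold change of 0.52 ± 0.14 (SE) with an FDR of 0.0199. On the log2 scale, Psma7 rose by 0.51 ± 0.15 (FDR 0.0257) and Psma5 by 0.43 ± 0.13 (FDR 0.0263), and for both the genotypes overlapped. The Psma6 call ended without wild type 1, wild type 2 or Phf23 knockout 1, and those of Psma5 and Psma7 also without Phf23 knockout 2, with log2 fold changes of 0.33 to 0.52 and FDRs of 0.0520 to 0.0886 in those fits.

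The other alpha genes, Psma1, Psma2, Psma3 and Psma4, had log2 fold changes of 0.20 to 0.33 and were not called. Psma2 and Psma3 have long annotated transcripts for this class, 2911 and 2846 nucleotides. Psma2 was at 2136, 2322, 2322 and 2207 normalised reads in wild type and at 3093, 3515, 2566 and 2266 in the knockout-labelled libraries. The last of these lay within the wild-type range. Its log2 fold change was 0.33 ± 0.13 (FDR 0.0687), and 0.44 ± 0.10 (FDR 0.0115) with the length and GC trend subtracted. For Psma3, the corresponding values were 0.20 ± 0.12 (FDR 0.228) and 0.28 ± 0.09 (FDR 0.0341). Per kilobase of principal transcript in wild type, Psma7 had the highest level of the class, 2642 ± 382, and Psma2 the lowest, 772 ± 31.5 (SD, n = 4).

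The beta ring showed the most frequent rise of the large classes: 5 of its 7 constitutive genes (71.4%) were called higher, against 46.7% of genes of like length, and the class median was 0.60 against 0.48 in genes of like length. Psmb5, which encodes the chymotrypsin-like subunit, was at 1227, 1326, 1870 and 1975 normalised reads in the wild-type libraries 1 to 4 and at 3338, 3163, 2243 and 2116 in Phf23 knockout 1 to 4. The genotypes did not overlap, but wild type 4 and Phf23 knockout 4 lay close together. The mean went from 1599 ± 378 to 2715 ± 624 (SD, n = 4), 1.70-fold, with a log2 fold change of 0.76 ± 0.18 (SE) and an FDR of 0.0122. Psmb6, the caspase-like subunit, was at 1635, 1921, 2292 and 2460 and then at 4042, 4352, 2788 and 2684. Its genotypes did not overlap either, and its log2 fold change was 0.72 ± 0.17 (FDR 0.0119). Psmb4, a structural subunit, was at 2435, 2375, 3272 and 3200 and then at 5592, 5710, 3943 and 3468. Its log2 fold change was 0.71 ± 0.17 (FDR 0.0119), again without overlap. These 3 genes were called with every single library left out in turn, with FDRs up to 0.0493.

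Psmb3, another structural subunit, rose by 0.60 ± 0.15 (FDR 0.0138) without overlap, and its call ended without Phf23 knockout 1. Psmb1 rose by 0.41 ± 0.12 (FDR 0.0230) with overlap, and its call ended without wild type 1 or 2 or without Phf23 knockout 1, 2 or 3. In these fits, the log2 fold changes of both genes were 0.35 to 0.54 and the FDRs 0.0516 to 0.0765. Psmb7, the trypsin-like subunit, was at 1389, 1652, 1835 and 1847 in wild type and at 2391, 2199, 1798 and 1730 in the knockout-labelled libraries. Phf23 knockout 3 and 4 lay within the wild-type range, and the log2 fold change of 0.27 ± 0.13 was not called (FDR 0.138). Psmb2, with the shortest transcript of all members (859 nucleotides), had a log2 fold change of 0.36 ± 0.15 (FDR 0.0771), below the median of 0.62 of genes of its length. In wild type 3 and 4 against Phf23 knockout 3 and 4, the beta ring median was 0.18 and limma-trend called no gene of the class (1 at an unadjusted p under 0.05). With the trend of the principal transcript subtracted, Psmb4 had 0.32 ± 0.09 (FDR 0.0213), Psmb1 0.33 ± 0.08 (FDR 0.0145), Psmb5 0.17 ± 0.08 (FDR 0.129) and Psmb6 0.11 ± 0.07 (FDR 0.280). Per kilobase in wild type, the class ran from 1449 ± 184 for Psmb7 to 2603 ± 465 for Psmb6 (SD, n = 4).

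Promoter sequences are shown for the members with a match to TGACNNNGC, a core of the element bound by Nfe2l1 and Nfe2l2, since Nfe2l1 is the factor best known for driving proteasome genes when proteasome activity falls. RefSeq (GRCm38.p6) had promoter entries for 36 of the 42 members, 39 in all, and the 250 bases before each start were searched on both strands. The motif was in 5 members, 12.8% of their entries, against 10.2% of 32851 promoters of the same length, so it was about as frequent as elsewhere. Each sequence below runs 5′ to 3′ on the strand of the gene, with the match in capitals.
Psmb5: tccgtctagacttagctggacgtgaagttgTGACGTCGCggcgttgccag
Psmb6: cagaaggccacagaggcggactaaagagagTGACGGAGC
Psmd9: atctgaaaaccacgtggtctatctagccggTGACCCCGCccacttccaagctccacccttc
Psmc6: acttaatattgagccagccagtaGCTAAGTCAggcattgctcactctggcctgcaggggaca
Psmd12: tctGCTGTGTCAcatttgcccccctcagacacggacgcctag
The Psmb5 stretch is chr14:54618023-54618072 on the minus strand, with the match 47 to 39 bases upstream of the start. The Psmb6 stretch is chr11:70525318-70525356 on the plus strand, with the match 9 to 1 bases upstream. The Psmd9 stretch is chr5:123228129-123228189 on the plus strand, with the match 31 to 23 bases upstream. In Psmc6 (chr14:45329574-45329635, plus strand) and Psmd12 (chr11:107479278-107479319, plus strand), the match reads on the opposite strand, and it lies 227 to 219 and 247 to 239 bases upstream. Psmb5, Psmb6 and Psmd9 were called higher, while Psmc6 and Psmd12 were not called. A match is a description of these letters and not a binding site. CCAAT was in 14 members, 35.9% of entries against 33.8% of all promoters. GAAA-NN-GAAA, a core of the interferon-stimulated element, was in Psmb3, Psmd4 and Psmd9, 7.69% of entries against 2.98%.

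Of the immunoproteasome genes, Psmb10 rose and had the largest log2 fold change of all members, while Psmb8 and Psmb9, which had few reads, did not pass the test. The 1 of 3 called (33.3%) was close to the 32.6% of genes of like length. Psmb10 (chr8:105935735-105938444, minus strand) was at 283, 280, 360 and 350 normalised reads in the wild-type libraries 1 to 4 and at 706, 525, 497 and 458 in Phf23 knockout 1 to 4. Every library labelled knockout was above every wild-type library. The mean went from 318 ± 42.6 to 546 ± 110 (SD, n = 4), 1.72-fold, with a log2 fold change of 0.77 ± 0.15 (SE, 95% confidence interval 0.44 to 1.09) and an FDR of 0.00619. The median of genes of its length was 0.48. Its call held with each library left out in turn, with FDRs up to 0.0277. It also held between libraries 3 and 4 of each genotype (0.43 ± 0.14, FDR 0.0386) and with the trend of the principal transcript subtracted (0.32 ± 0.10, FDR 0.0447). It did not with the trend of the longest transcript (0.28 ± 0.11, FDR 0.0777), although both trends used the same annotated length of 1311 nucleotides for this gene. With the length slope as a covariate, its log2 fold change was 0.37 ± 0.18 (FDR 0.513).

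Psmb9 was at 28.5, 31.7, 16.9 and 17.4 normalised reads in wild type and at 50.1, 34.7, 32.6 and 34.2 in the knockout-labelled libraries. The groups did not overlap, but the log2 fold change of 0.69 ± 0.28 had an FDR of 0.0768. Psmb8 was at 5.89, 25.9, 28.1 and 37.8 and then at 40.4, 48.4, 18.6 and 27.4, with broad overlap. Its log2 fold change of 0.61 ± 0.49 had an FDR of 0.364 and a confidence interval from -0.44 to 1.66, so a change of either sign was not distinguishable at this depth. Exons of Psmb9 overlap Tap1 and those of Psmb8 overlap Gm20496, and reads of overlapping genes cannot be told apart here.

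Per kilobase of principal transcript, the immunoproteasome genes were far below the subunits they replace. Wild-type levels per kilobase were 243 ± 32.5 for Psmb10, 17.5 ± 5.60 for Psmb9 and 15.01 ± 8.23 for Psmb8 (SD, n = 4). Psmb10 per kilobase amounted to 18.01, 15.01, 17.36 and 16.76% of Psmb7 in wild type 1 to 4 and to 26.11, 21.15, 24.46 and 23.42% in Phf23 knockout 1 to 4. These ratios did not overlap, and unlike the levels, they were about as high in Phf23 knockout 3 and 4 as in 1 and 2. The mean ratio went from 16.8 ± 1.29% to 23.8 ± 2.08% (SD, n = 4). Exons of Psmb7 overlap those of Nek6. The longest transcript of Psmb7 has 2849 nucleotides and 40.8% GC, and its principal one 1160 nucleotides. Psmb10 has 1311 nucleotides by either choice and 56.5% GC. Whether length or GC content enters this ratio was not tested. Psmb9 amounted to 0.418 to 1.03% of Psmb6 in wild type and 0.471 to 0.753% in the knockout-labelled libraries. Psmb8 amounted to 0.265 to 1.08% of Psmb5 and to 0.458 to 0.846%, so both of these ratios overlapped. Psmb11 of the thymus was at 0 to 11.5 normalised reads in wild type and 0.978 to 5.78 in the knockout-labelled libraries, and was not called (FDR 0.963).

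**Figure D5:**
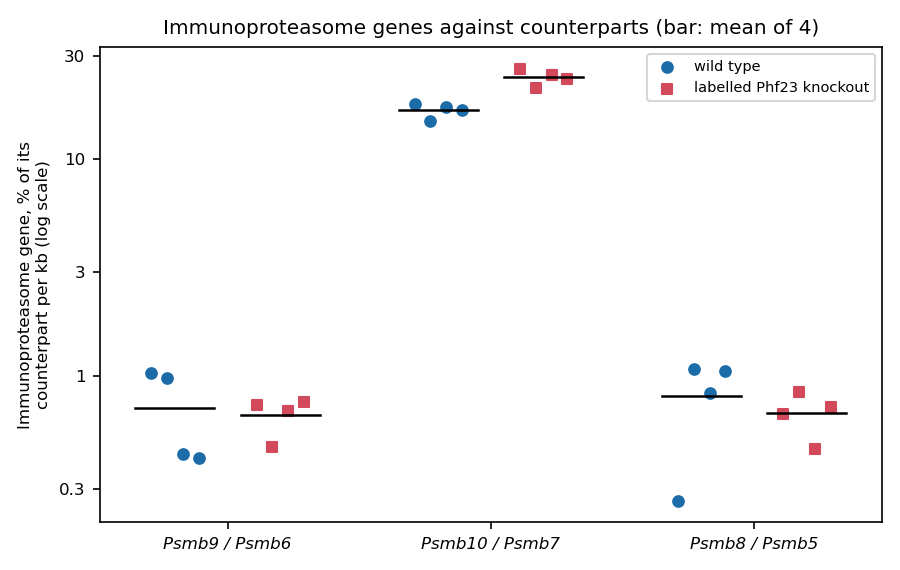
Level per kilobase of each immunoproteasome gene as a percentage of the constitutive subunit it replaces (vertical log axis), with 1 point per library (circles for wild type, squares for libraries labelled Phf23 knockout, n = 4 each) and a bar at the mean. Psmb10 over Psmb7 shows no overlap between genotypes, with means of 16.8% and 23.8%, while the other ratios overlap near or below 1.08%.

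The ATPase ring genes rose in 4 of 6 cases (Psmc1, Psmc3, Psmc4 and Psmc5; 66.7%, against 32.0% of genes of like length), with a class median of 0.40 against 0.29 in genes of like length. Psmc1 was at 2473, 2945, 2951 and 3027 normalised reads in wild type and at 4472, 5109, 3382 and 3162 in the knockout-labelled libraries. The genotypes did not overlap, and Phf23 knockout 4 was just above wild type 4. Its mean went from 2849 ± 253 to 4031 ± 919 (SD, n = 4), with a log2 fold change of 0.48 ± 0.15 (SE) and an FDR of 0.0288. Psmc3, Psmc4 and Psmc5 had log2 fold changes of 0.40, 0.41 and 0.39, FDRs of 0.0256, 0.0252 and 0.0340, and no overlap. All 4 calls ended without wild type 1 or 2 or without Phf23 knockout 1 or 2, and those of Psmc4 and Psmc5 also without wild type 3, with log2 fold changes of 0.32 to 0.49 and FDRs of 0.0517 to 0.114.

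Psmc6, another ATPase of the ring, was not called and had a negative log2 fold change. It was at 2803, 2714, 2632 and 2180 normalised reads in wild type and at 2500, 2467, 2411 and 2173 in the knockout-labelled libraries, a log2 fold change of -0.11 ± 0.10 (FDR 0.456). Genes of its length (2234 nucleotides) had a median of 0.20. Its transcript had the lowest GC content of all members, 37.0%, and with the length and GC trend subtracted its log2 fold change was -0.02. Psmc2 had 0.32 ± 0.12 (FDR 0.0565), and 0.46 ± 0.11 (FDR 0.0119) with the trend of its longest transcript subtracted but 0.16 ± 0.07 (FDR 0.130) with that of the principal one. The annotated lengths are 3466 and 1785 nucleotides, so for this gene the call turned on the transcript chosen. Per kilobase in wild type, Psmc1 was highest (1791 ± 159) and Psmc2 lowest (1118 ± 58.5) (SD, n = 4).

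The non-ATPase genes of the base did not move together: 1 of 3 rose (33.3%, against 20.2% of genes of like length). Psmd1 and Psmd2 encode the large scaffolds of the base, and Psmd4 encodes a ubiquitin receptor. Psmd4 was at 1684, 1888, 1862 and 2041 normalised reads in wild type and at 2759, 2471, 2280 and 2015 in the knockout-labelled libraries. It rose by 0.34 ± 0.11 on the log2 scale (FDR 0.0360), although Phf23 knockout 4 was below wild type 4. The call ended on leaving out any library other than wild type 4 or Phf23 knockout 4, with log2 fold changes of 0.27 to 0.36 and FDRs of 0.0632 to 0.119. Psmd2 went from 6663 ± 244 to 6892 ± 713 (SD, n = 4) and had a log2 fold change of 0.04 ± 0.10 (FDR 0.774). Psmd1 went from 4238 ± 423 to 3912 ± 187, with a log2 fold change of -0.11 ± 0.10 (FDR 0.417). These were among the longer members, at 3001 and 3112 nucleotides, and genes of like length had medians of 0.07 and 0.06. Psmd2 also had the highest level per kilobase of the class, 2250 ± 82.5 in wild type.

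The lid genes rose in 2 of 8 cases (25%, against 31.9% of genes of like length), and their median of 0.25 was close to the 0.24 of genes of like length. Psmd3 was at 3127, 3292, 4010 and 3979 normalised reads in wild type and at 5258, 5245, 4631 and 4169 in the knockout-labelled libraries, without overlap. Its log2 fold change was 0.42 ± 0.12 (FDR 0.0194), and it ended as a call without wild type 1, wild type 2 or Phf23 knockout 1. Psmd8 rose by 0.43 ± 0.13 (FDR 0.0307) with overlap, and its call ended on leaving out any library other than wild type 4 or Phf23 knockout 4. In those fits the log2 fold changes of both were 0.32 to 0.45 and the FDRs 0.0539 to 0.0960. Psmd3 was also called with the trend of the longest transcript subtracted (0.25 ± 0.08, FDR 0.0345), but not with that of the principal one (0.12 ± 0.06, FDR 0.203).

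The other 6 lid genes were not called. Psmd7 (0.26, FDR 0.0547) and Psmd13 (0.26, FDR 0.0854) had no overlap between genotypes. Psmd14, which encodes the deubiquitinase of the lid, had a log2 fold change of 0.15 ± 0.12 (FDR 0.365). Psmd6, Psmd11 and Psmd12 had 0.24, 0.08 and 0.08. Per kilobase in wild type, the lid ran from 687 ± 40.7 for Psmd11 to 1725 ± 53.2 for Psmd8 (SD, n = 4).

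Psmd5, Psmd9 and Psmd10 encode chaperones that assemble the base and then leave it. Of the 3 genes 2 rose (66.7%, against 24.3% of genes of like length). Levels per kilobase in wild type were 235 ± 19.5, 229 ± 28.7 and 215 ± 19.7 (SD, n = 4), below those of every constitutive core, ATPase, base and lid gene. Psmd10 was at 297, 273, 335 and 325 normalised reads in wild type and at 469, 423, 416 and 340 in the knockout-labelled libraries, and rose by 0.42 ± 0.13 (FDR 0.0291). Psmd9 was at 519, 542, 651 and 666 and then at 911, 896, 676 and 673, and rose by 0.40 ± 0.14 (FDR 0.0444). Neither gene overlapped between genotypes, though for Psmd9 the libraries labelled knockout 3 and 4 were only just above wild type 4. Both calls ended without wild type 1 or 2 or without Phf23 knockout 1 or 2, that of Psmd10 also without Phf23 knockout 3 and that of Psmd9 also without wild type 3, with log2 fold changes of 0.33 to 0.45 and FDRs of 0.0526 to 0.139. Psmd5, with a transcript of 4397 nucleotides, had 0.10 ± 0.10 (FDR 0.463), while genes of its length had a median of -0.11. With either trend subtracted, it was called higher (0.30 ± 0.08, FDR 0.0181 by the longest transcript, and 0.35 ± 0.08, FDR 0.00794 by the principal one). It was also the only member highest in Phf23 knockout 3.

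The activator genes moved in different directions, with 2 of 4 called higher (50%, against 27.4% of genes of like length) and 1 lower. Psme1 and Psme2, whose products form a cap that is induced by interferon, rose, Psme3 did not pass the test, and Psme4, a large activator acting in the nucleus, fell. Psme2 was at 390, 436, 449 and 451 normalised reads in wild type and at 837, 697, 602 and 520 in the knockout-labelled libraries, without overlap. Its mean went from 431 ± 28.7 to 664 ± 136 (SD, n = 4), 1.54-fold, with a log2 fold change of 0.60 ± 0.14 (SE) and an FDR of 0.0112, close to the median of 0.58 of genes of its length. This call held with each library left out in turn. Psme1 was at 373, 487, 501 and 548 and then at 884, 862, 580 and 608, also without overlap. It rose by 0.61 ± 0.17 (FDR 0.0186), and the call ended without wild type 1 (0.49, FDR 0.0609), wild type 2 (0.62, FDR 0.0501) or Phf23 knockout 1 (0.51, FDR 0.0687). Neither was called with a length and GC trend subtracted. These 2 genes lie 5911 bases apart on chromosome 14.

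Psme4 was at 3015, 2880, 2324 and 2158 normalised reads in wild type and at 1857, 1655, 1948 and 2175 in the knockout-labelled libraries. Phf23 knockout 4 was above wild type 4, so the genotypes overlapped, and the lowest values were again those of Phf23 knockout 1 and 2. The mean went from 2594 ± 417 to 1909 ± 215 (SD, n = 4), with a log2 fold change of -0.44 ± 0.13 (SE, 95% confidence interval -0.71 to -0.16) and an FDR of 0.0241. With 6491 nucleotides, its transcript is the longest of all members, and genes of that length had a median of -0.35, with 41.6% of them called lower. The call ended without wild type 1 (-0.36, FDR 0.0797), wild type 2 (-0.38, FDR 0.0830), Phf23 knockout 1 (-0.42, FDR 0.0696) or Phf23 knockout 2 (-0.37, FDR 0.0574). With the trend subtracted, the log2 fold change was -0.05 ± 0.07 (FDR 0.634). Psme3, a nuclear activator, went from 3122 ± 200 to 3019 ± 252, a log2 fold change of -0.05 ± 0.10 (FDR 0.731). Per kilobase in wild type, Psme3 was at 1172 ± 75.0, Psme2 at 449 ± 29.8, Psme1 at 429 ± 66.8 and Psme4 at 400 ± 64.3.

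Set side by side, the constitutive core had 8 of 14 genes called higher (57.1%, against 44.1% of genes of like length) and a median of 0.42. The regulatory particle without its chaperones had 7 of 17 (41.2%, against 29.9%) and a median of 0.26. The core transcripts were also shorter, with a median longest transcript of 1220 nucleotides against 1983, and the medians of genes of like length were 0.48 and 0.24. Gene by gene, 9 of the 14 core genes and 9 of the 17 others lay above the median of genes of their own length. The median of these gene-by-gene differences was 0.12 for the core and 0.008 for the regulatory particle. The difference between the 2 groups was not tested. In libraries 3 and 4 of each genotype, the medians were 0.16 and 0.10.

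Genes that build the proteasome or bind to it changed in both directions. Of 18 listed assembly factors and proteasome-bound genes 17 were measured, and 6 rose, 3 fell and 8 did not pass the test, against 14.8% of all genes called in each direction, with a median of 0.23. The ubiquitin receptor Adrm1 went from 1626 ± 299 to 2428 ± 356 normalised reads (SD, n = 4; log2 fold change 0.58, FDR 0.0130). The lid component Sem1 rose by 0.75 (FDR 0.0222) and the core assembly chaperone Psmg3 by 0.56 (FDR 0.0182). Ube3a, a ubiquitin ligase found on proteasomes, fell by 0.62 (FDR 0.0165) and has a long transcript (9856 nucleotides). With the trend of the longest transcript subtracted, 3 of the 17 were called higher and 0 lower, against 10.6% and 7.87% of all genes. Adrm1 then had 0.57 (FDR 0.0182), Psmg3 0.41 (FDR 0.0269), Sem1 0.74 (FDR 0.0951) and Ube3a -0.046 (FDR 0.721), but with the principal transcript Adrm1 had 0.10 (FDR 0.278) and Psmg3 -0.033 (FDR 0.843). The remaining gene called higher, Txnl1, had 0.38 (FDR 0.0221), and 0.44 (FDR 0.0192) with the principal transcript. Without the subtraction Txnl1 was not called (0.12, FDR 0.418). The Adrm1 call ended without Phf23 knockout 1, those of Psmg3 and Ube3a also without wild type 1 or 2, and that of Sem1 in addition without Phf23 knockout 2, with FDRs of 0.0514 to 0.0804 in those fits.

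Of 17 ubiquitin, shuttle receptor and segregase genes, 3 rose and 1 fell, with a median of 0.05; 14.8% of all genes were called in each direction, so the number that rose was near that rate. On the log2 scale, the polyubiquitin gene Ubb rose by 0.44 (FDR 0.0272), the segregase cofactor Nsfl1c rose by 0.48 (FDR 0.0184), and Uba6, an enzyme that activates ubiquitin, fell by 0.68 (FDR 0.0145). None of the 17 was called in either direction in limma-trend with the trend of the longest transcript subtracted (5 at an unadjusted p under 0.05). Of all genes, 10.6% were called higher and 7.87% lower in that fit. The calls of Ubb and Nsfl1c ended without wild type 1 or 2 or Phf23 knockout 1, that of Ubb also without Phf23 knockout 2 or 3, and that of Uba6 without wild type 2 or Phf23 knockout 1, with FDRs of 0.0506 to 0.0919.

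The transcription factors named with proteasome genes were not called over all 8 libraries. Nfe2l1 went from 4220 ± 365 to 3853 ± 588 normalised reads (SD, n = 4; log2 fold change -0.14, FDR 0.404), and Nfe2l2 had a log2 fold change of 0.27 (FDR 0.0622). Nfe2l2 was called higher in libraries 3 and 4 of each genotype (0.40, FDR 0.00557) and with the trend of the principal transcript subtracted (0.29, FDR 0.0116), but not with that of the longest one (0.22, FDR 0.0643). Of 16 genes of their pathway 1 rose and 1 fell, against 14.8% of all genes in each direction, with a median of -0.02. These were Srxn1, a peroxiredoxin repair enzyme (0.32, FDR 0.0396), and Slc7a11, the cystine transporter (-0.83, FDR 0.00642). With the trend of the longest transcript subtracted, limma-trend called 0 of the 16 in either direction (5 at an unadjusted p under 0.05). That fit called 10.6% of all genes higher and 7.87% lower. Srxn1 then had 0.17 (FDR 0.162), and Slc7a11, with a transcript of 9223 nucleotides, had -0.31 (FDR 0.112). The Srxn1 call ended on leaving out any library other than wild type 4 or Phf23 knockout 4, with FDRs of 0.0663 to 0.114.

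Of 16 antigen presentation and interferon genes, which act downstream of or together with the immunoproteasome, 1 rose and 1 fell, against 14.8% of all genes in each direction, with a median of 0.02. Tapbp, which helps to load peptides on MHC class I, was at 443, 471, 461 and 560 normalised reads in wild type and at 851, 995, 769 and 738 in the knockout-labelled libraries, without overlap. Its log2 fold change was 0.79 ± 0.12 (FDR 0.00272), and it was called with the trend subtracted (0.58, FDR 0.00142) and in libraries 3 and 4 alone (0.57, FDR 0.000677). The peptide-trimming protease Erap1 fell by 0.51 (FDR 0.0193), and its call ended without wild type 1, wild type 2 or Phf23 knockout 1, with FDRs of 0.0538 to 0.0662. With the trend of the longest transcript subtracted, Erap1 (5644 nucleotides) had -0.16 (FDR 0.272) and was not called. That fit called 1 of the 16 genes higher, Tapbp, and 2 lower, Tapbpl (-0.75, FDR 0.0178) and H2-D1 (-0.27, FDR 0.0397). Its shares over all genes were 10.6% higher and 7.87% lower. The interferon regulator Irf1 had a log2 fold change of -0.04, and the peptide transporter gene Tap1 and the light chain gene B2m had 0.17 and 0.14. None of these 3 was called (FDR 0.386 to 0.879).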

How the data were processed

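Bulk RNA-seq libraries of mouse neurospheres were compared by the genotype in their labels, 4 wild type and 4 labelled knockout. Libraries were made from polyadenylated RNA of TRIzol lysates with a NEBNext Ultra kit, per the labels' protocols. The submitters' processing notes name STAR 2.7.1a, fastp 0.23.4, FastQC 0.12.1 and DESeq2 1.38.3, with mm10 as the build. For the counter, annotation, strand setting and gene filter, the sources used here state nothing. Each deposited signal value is a gene's read count over its library's size factor (0.889 to 1.07), since whole reads were recovered for 100% of values at a tolerance of 1e-04 reads. Of 15602 rows, 64 repeated another and were dropped. The table held 0 columns of samples outside the series, and its lowest gene total was 11 reads.

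The test was limma-trend (limma 3.58.1, R 4.3.3; robust empirical Bayes) on log2(value + 1), with genotype as its term. It was two-sided, and p-values were adjusted over all 15538 genes by the Benjamini-Hochberg method. All log2 fold changes from limma-trend are on that scale, which understates changes of low genes. Plain folds are ratios of the mean normalised reads of the genotypes. An FDR with no other tool named is from this test. Because the deposited values were normalised, the edgeR test planned for raw counts was run as an alternative. Identifiers were matched to GENCODE M21 (15531 genes with a symbol, 14729 protein-coding). Length and GC content are those of the longest annotated transcript unless the APPRIS principal one is named, and levels per kilobase use the principal one. Coordinates are 1-based. The loess trend (span 0.3) was subtracted per library. Subtraction with the principal transcript, its use for genes of like length, and the fit of libraries 3 and 4 of each genotype were added after seeing the data. The fit scripts were tested on simulated data. The alternatives were edgeR 4.0.16 and DESeq2 1.42.0 on the recovered counts, limma-voom, other scalings, filters, a pseudocount of 0.1, a replicate block, the length corrections and leaving out libraries.

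The members and gene lists were chosen with earlier results of these data known, so lists are described by counts and medians. Named with full values were up to 4 called members per class with the lowest FDR, all immunoproteasome genes with their counterparts, all activators, members called lower, and the highest and lowest per kilobase in a class, and from each list up to 4 called genes. Some genes of the lists are counted but not reported by name here. Other members, markers and list genes (such as Tapbpl and H2-D1) are named where a count or an alternative turned on them, after their values were seen. Members without a promoter entry were Psmb1, Psmb2, Psmb7, Psmc3, Psmd3 and Psmd7.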

Additional observations from a re-analysis of the deposited data

Results flagged for a closer look

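Among the 84 sets of 4 libraries (42 members in each genotype), 3 held a library that stood far from the other 3 relative to the spread of the set. About 1 in 20 sets would do so by chance. Psma1 was highest in wild type 3, at 2479 normalised reads, with the other wild-type libraries at 2173 to 2219. Psmb9 was highest in Phf23 knockout 1, at 50.1 normalised reads, with the other libraries labelled knockout at 32.6 to 34.7. Psmc1 was lowest in wild type 1, at 2473 normalised reads, with the other wild-type libraries at 2945 to 3027.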

How the results depend on the processing

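Other count tests and scalings moved the members little. DESeq2 called 24 higher and 1 lower, edgeR 21 or 22 and 1, limma-voom 22 and 1, and library-size scaling 17 and 1, where Psmd2 turned to -0.019. Over all genes, DESeq2 called 2603 of 15538 higher and limma-voom 2401 of 13324. The edgeR fits called 2333 of 15538 without a filter, and 2368 and 2412 of 13324 with it. Library-size scaling called 1827 genes higher and 2757 lower (39.9% higher), against 2301 and 2292 (50.1%). In what follows, values are members called higher, members called lower, all genes called, the members' median log2 fold change and the median of genes of like length, which were 20, 1, 4593, 0.38 and 0.25. They were 9, 0, 2862, 0.14 and 0.031 with the trend of the longest transcript subtracted, and 6, 0, 2678, 0.10 and 0.037 with that of the principal one. With the length slope as a covariate they were 0, 0, 170, 0.0087 and 0.0019. They were 1, 0, 1422, 0.13 and 0.080 in libraries 3 and 4 of each genotype, and 31, 2, 7202, 0.58 and 0.46 in libraries 1 and 2. Leaving out 1 library gave 5 to 29 higher, 0 to 1 lower and 1884 to 5861 genes in all. With the replicate number as a block, limma-trend called 0 members higher and 0 lower (26 at an unadjusted p under 0.05) and 333 genes, and with the block and the subtracted trend the values were 2, 0, 1470, 0.14 and 0.031. Same-numbered libraries had correlations of -0.33, -0.13, -0.19 and -0.28 of their deviations from the genotype mean (13271 genes), and none was closest to its own number. Every pair of a library 1 or 2 with a library 3 or 4 of the other genotype had a positive correlation (0.13 to 0.37). All other pairs between genotypes were negative. The length slopes split the libraries in the same way, so these correlations cannot show whether the numbers pair the libraries.

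Named genes changed sign as follows. With the slope as a covariate: Psma2 -0.082, Psma5 -0.0042, Psma7 -0.10, Psmb7 -0.17, Psmb8 -0.83, Psmc1 -0.064, Psmc2 -0.060, Psmc5 -0.031, Psmd1 0.088, Psmd8 -0.026, Psmd9 -0.068, Psme3 0.013, Sem1 -0.12 and Ubb -0.019. With the principal transcript: Psmb7 -0.057, Psmd4 -0.065 and Psmg3 -0.033. With the longest transcript, with or without the block: Psmd2 -0.030. In libraries 3 and 4: Psmb7 -0.062, Psmb8 -0.51, Psmd1 0.054 and Psme3 0.051. Leaving out 1 library gave Psmd2 from -0.0081 (without Phf23 knockout 1) to 0.11 (without Phf23 knockout 2). The cause was not tested. Low depth limits Psmb8, Psmb9 and Psmb11.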

Other observations

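Exons of 12 of the 42 members overlap those of another annotated gene, among them Psmb7 with Nek6, Psmc3 with Slc39a13, Psmd13 with Sirt3 and Psme1 with Emc9, and their reads cannot be told apart here. Psmb10 overlaps none. Besides Psme1 and Psme2, neighbouring members are Psmb8 and Psmb9, which lie 9956 bases apart on chromosome 17, and Psmb5 and Psmb11, 3410 bases apart on chromosome 14. In each of these latter pairs the genes run on opposite strands. Psmb5 rose by 0.76 on the log2 scale (FDR 0.0122, limma-trend), while Psmb11, on the adjacent stretch, was at 0 to 11.5 normalised reads.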
